A study of Mus musculus with 26 samples.

Results

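The stromal fraction of wild-type mammary glands was compared between mice aged 12 months and mice aged 3 months. Its members are the 4 libraries that the labels give as stromal, wild type and of these ages, out of 26 libraries in the series. At 3 months they came from pools F79 and F81, and at 12 months from pools A1 and A2, so each age had n = 2. All animals were of strain B6.129S1 and carried no altered allele in these groups, and no treatment is named. The rest of the series holds luminal and basal cells of the same pools, and cells of mice null for the transcription factor gene Snai2. Each pool combined cells of 3 mice, and flow cytometry on the surface proteins EpCAM and CD49f divided them. The glands had been cut up and frozen before they were dissociated into single cells. The fraction is a sort gate and not a purified cell type, and no batch is labelled. Each age was carried by its own pools, so age and anything else that differed between the pools cannot be told apart.

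The stroma of the mammary gland is the connective tissue around the epithelial ducts. Fibroblasts make up much of it and secrete fibrillar collagens, proteoglycans and matrix-remodelling enzymes. Endothelial cells, pericytes, fat-lineage cells and macrophages lie among them. Heat shock proteins are chaperones that hold or refold damaged proteins, and their genes are switched on within minutes by heat, oxidation or other protein damage. Immediate early genes such as Fos and Jun encode transcription factors that are induced just as fast, and enzymatic dissociation of a tissue is known to induce both groups.

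The 4 libraries held 3826528 to 6409017 counts and 18223 to 18821 genes with at least 1 count. Mitochondrial ribosomal RNA took 17.2% to 27.8% of the counts. Col1a1, a chain of type I collagen, and Mmp2, a gelatinase, are the stromal markers used here. Col1a1 stood at 3563 and 2159 CPM (counts scaled to library size) at 3 months and at 1252 and 1573 CPM at 12 months. Mmp2 stood at 792 and 1039.8 CPM at 3 months and at 1158 and 566 CPM at 12 months. Both markers were thus present in every library, and all 16 genes of the fibroblast list had counts in each. The list summed to 32270 and 24730 CPM at 3 months and to 22080 and 19100 CPM at 12 months. Markers of epithelial cells and milk protein genes stood at unequal levels. The 8 basal epithelial markers summed to 30.5 and 52.1 CPM at 3 months, to 19.96 CPM in A1 and to 469 CPM in A2. The 7 milk protein genes summed to 142 and 165 CPM at 3 months, 1759 CPM in A1 and 230.4 CPM in A2. The 13 luminal epithelial markers summed to 666 and 1062 CPM at 3 months, 445 CPM in A1 and 1021 CPM in A2. A1 thus had the most milk protein RNA and the least luminal marker RNA. In luminal and basal cells of these pools the milk protein genes had median log2 fold changes of 8.08 and 9.26, 12 over 3 months. Their part in the differences below was not tested. The 2 libraries of an age differed beyond sampling noise, with a chi-square per gene of 12.3 at 3 months and 31.8 at 12 months.

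Of 14990 genes tested, 282 (1.88%) differed between the ages at an adjusted p under 0.05. The test was edgeR's quasi-likelihood F test, and each adjusted p below is its Benjamini-Hochberg value over all tested genes. At 12 months 224 genes (1.49%) were higher and 58 (0.387%) lower. The median rise was 1.63 and the median fall was -1.68 on the log2 scale, and the median over all tested genes was -0.01. In every one of the 282 genes both 12-month libraries lay on the same side of both 3-month libraries, as they did in 23.3% of tested genes above and in 22.3% below. The rises included chaperones, immediate early genes and genes of RNA processing, and the falls included collagen and other matrix genes and macrophage genes. In bulk libraries, fewer cells of a type and less RNA of a gene per cell cannot be told apart. The spread in this test was shared by the 12 wild-type libraries. With all 26 libraries sharing it, no gene was called by edgeR (729 at an unadjusted p under 0.05), and with 24 libraries, leaving out 2 from null pool A5 whose markers go against their labels, 37 were called. Without F79 the count was 69, and without F81 it was 67, but all 282 kept their sign in each of these fits.

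**Figure D1:**
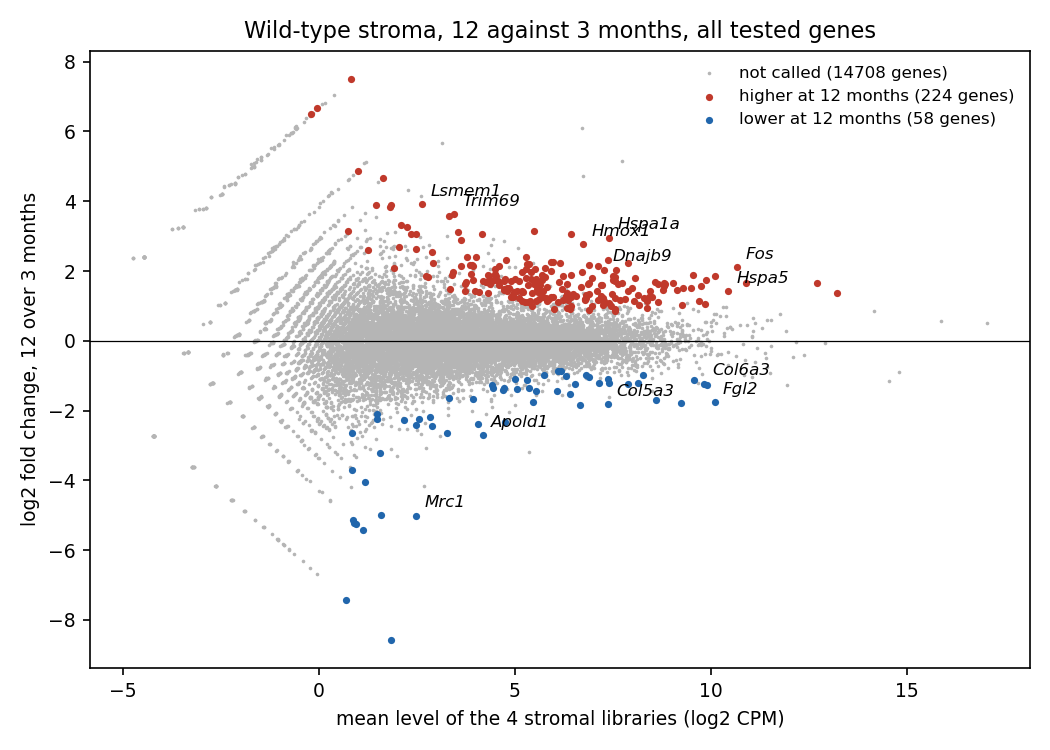
Log2 fold change of each tested gene, 12 over 3 months, against its mean level in the 4 wild-type stromal libraries in log2 CPM. The 224 genes called higher (red) spread over low and high levels, while the 58 called lower (blue) include Mrc1 at low level and Col6a3 and Fgl2 at high level.

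Heat shock genes of the cytosol, which hold and refold proteins there, rose in both 12-month libraries. The heat shock and unfolded protein list has 19 tested members, of which 12 were called higher, 0 lower, with a median log2 fold change of 1.44. Against this stands the 1.49% of all tested genes called higher. The promoters of members are shown here because these genes moved together. A heat shock element is a run of the unit GAA and its reverse complement TTC that heat shock factor binds, and an endoplasmic reticulum (ER) stress element is bound by factors of the unfolded protein response. The 250 bases before the start of each gene were taken from RefSeq (GRCm38.p6), where 10279 of 14981 tested symbols had a promoter, and both strands were searched. A perfect run of 3 units (GAA, TTC and GAA, or TTC, GAA and TTC, with any 2 bases between neighbours) was in 0 of the 10 called members with a promoter, in 2 of 7 members not called (Hspd1 and Hspe1) and in 0.486% of tested genes. A run of 2 units (GAANNTTC or TTCNNGAA), searched after the longer one had been seen and contained in it, was in 5 of 10 called members, 2 of 7 not called and 12.1% of tested genes (12.8% of all promoters of this length). Over all genes called higher it was in 14.4%. These are matches of letters and not measured binding. The windows below run 5′ to 3′ on the gene's own strand, with 2-unit matches in capitals. They are chr17:34972157-34972406 (minus strand) for Hspa1a, chr17:34959239-34959488 (minus) for Hspa1b, chr5:149636316-149636565 (minus) for Hsph1, chr4:40722218-40722467 (plus) for Dnaja1 and chr5:135887669-135887918 (plus) for Hspb1.
Hspa1a: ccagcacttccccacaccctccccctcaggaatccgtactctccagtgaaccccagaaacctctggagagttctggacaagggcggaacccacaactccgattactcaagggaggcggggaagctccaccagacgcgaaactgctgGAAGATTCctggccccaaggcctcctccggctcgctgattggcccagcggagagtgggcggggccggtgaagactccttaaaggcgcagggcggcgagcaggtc
Hspa1b: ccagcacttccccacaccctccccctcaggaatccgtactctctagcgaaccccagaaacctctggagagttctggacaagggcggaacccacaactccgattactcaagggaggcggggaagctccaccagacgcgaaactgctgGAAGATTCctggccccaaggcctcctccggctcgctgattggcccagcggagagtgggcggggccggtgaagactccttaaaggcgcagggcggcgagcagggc
Hsph1: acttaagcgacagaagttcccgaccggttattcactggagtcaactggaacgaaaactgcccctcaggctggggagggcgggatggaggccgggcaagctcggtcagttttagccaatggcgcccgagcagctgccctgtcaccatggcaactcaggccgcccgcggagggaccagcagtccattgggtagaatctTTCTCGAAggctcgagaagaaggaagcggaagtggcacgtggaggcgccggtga
Dnaja1: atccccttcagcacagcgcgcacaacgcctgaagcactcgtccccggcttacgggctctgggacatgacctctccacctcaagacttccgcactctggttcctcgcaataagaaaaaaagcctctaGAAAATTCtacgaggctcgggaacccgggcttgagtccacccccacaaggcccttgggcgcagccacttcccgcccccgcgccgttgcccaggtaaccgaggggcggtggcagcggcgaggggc
Hspb1: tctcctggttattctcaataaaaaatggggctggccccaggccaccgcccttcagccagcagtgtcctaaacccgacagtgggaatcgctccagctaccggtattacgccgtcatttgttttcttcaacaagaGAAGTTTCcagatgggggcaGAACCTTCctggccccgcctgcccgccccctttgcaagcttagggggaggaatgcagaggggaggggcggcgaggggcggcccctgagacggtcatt
The windows of Hspa1a and Hspa1b differed at 3 of 250 bases. The match began 104 bases before the start in both, 54 before in Hsph1, 124 before in Dnaja1, and 117 and 97 before in Hspb1. Hspa5 carried no such run, but an ER stress element (CCAAT and CCACG with any 9 bases between them) that began 65 bases before its start, in capitals in the window chr2:34771840-34772089 (plus strand).
Hspa5: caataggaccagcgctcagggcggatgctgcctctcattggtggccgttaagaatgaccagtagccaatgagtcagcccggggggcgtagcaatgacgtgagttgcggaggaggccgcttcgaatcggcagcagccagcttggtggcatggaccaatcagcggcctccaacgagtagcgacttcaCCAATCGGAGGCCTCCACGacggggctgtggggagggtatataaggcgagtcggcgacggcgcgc
This element was in 0.146% of tested genes, and the list's other match was Hsp90b1, which was not called.

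Hspa1a and Hspa1b encode the stress-inducible Hsp70 chaperones. Hspa1a (ENSMUSG00000091971, GRCm38 chromosome 17, 34969190 to 34972156, minus strand, protein-coding) stood at 40.2 and 36.2 CPM at 3 months and at 288 and 316 CPM at 12 months. Its log2 fold change was 2.96 ± 0.28 (SE, adjusted p = 0.0002). Both 12-month libraries were high and the ages did not overlap. Hspa1b (ENSMUSG00000090877, chromosome 17, 34956436 to 34959238, minus strand) stood at 23.69 and 13.01 CPM and then at 149 and 162 CPM (3.06 ± 0.31, adjusted p = 0.000252). The 2 genes are near-identical copies, so how their reads were divided is uncertain, but both pointed the same way. Hspa1a also overlaps a predicted gene on the opposite strand, as does Lsmem1 below. Hspa8, the constitutive Hsp70, stood at 444 and 412 CPM at 3 months and 1387 and 1183 CPM at 12 months (1.56 ± 0.23, adjusted p = 0.00157). Its snoRNA genes lie on the same strand within it, so their reads are not separable.

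Some partners of Hsp70 rose with it. Hsp90aa1, the inducible Hsp90, stood at 223 and 221 CPM at 3 months and at 712 and 639 CPM at 12 months, a log2 fold change of 1.58 ± 0.22 (adjusted p = 0.00111). Hsph1, an Hsp110 that exchanges the nucleotide on Hsp70, went from 78.9 and 77.0 CPM to 306 and 270.1 CPM (1.86 ± 0.26, adjusted p = 0.00112). In both genes the 3-month libraries were nearly level and the 12-month libraries about as close to each other. The J-domain co-chaperones Dnaja1 and Dnajb1 rose by 1.44 ± 0.23 and 1.63 ± 0.27 (adjusted p = 0.00348 and 0.00456). Hspb1, a small heat shock protein, stood at 12.7 and 16.3 CPM and then at 45.0 and 71.8 CPM (1.98 ± 0.29, adjusted p = 0.00198). Members of the mitochondrial chaperonin were not called: Hspd1 stood at 115 and 128 CPM at 3 months and at 118 and 126 CPM at 12 months. Among all J-domain genes, 3 of 38 tested were called higher (1.49% of all tested genes were). Of these 38, 19 were above 0, and the median was -0.05. None of 8 cytosolic chaperonin (Cct) genes was called. These families were drawn up after values had been seen.

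**Figure D2:**
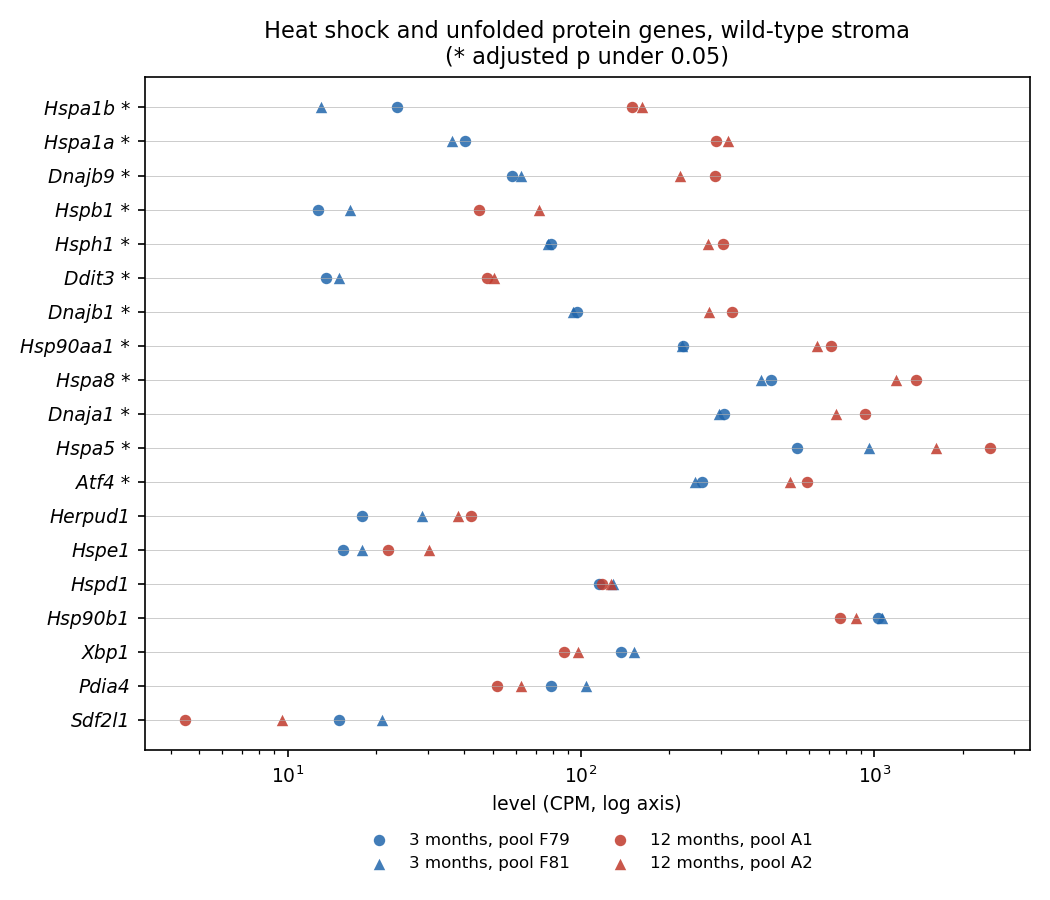
Level of the 19 tested heat shock and unfolded protein genes in CPM (log axis) in each wild-type stromal library, ordered by fold change, with the 12 called genes starred. The 12-month points (red) of the starred genes all lie to the right of the 3-month points (blue), whereas Xbp1, Pdia4, Sdf2l1 and Hsp90b1 lie the other way and were not called.

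Members that belong to the ER were divided. Dnajb9, an ER co-chaperone, stood at 58.2 and 62.7 CPM at 3 months and at 286 and 218 CPM at 12 months (log2 fold change 2.04 ± 0.21, adjusted p = 0.000252). Hspa5, the ER Hsp70 also called BiP, stood at 545 and 959 CPM and then at 2467 and 1619.8 CPM (1.42 ± 0.30, adjusted p = 0.0209). The 12-month libraries were higher in both genes, though the 2 libraries of each age lay further apart for Hspa5. Transcription factor genes of the stress response also rose, Atf4 by 1.11 ± 0.22 (adjusted p = 0.0144) and Ddit3 by 1.76 ± 0.32 (adjusted p = 0.0078). Other ER members were not called. Xbp1, a transcription factor of the unfolded protein response, stood at 136 and 151 CPM and then at 87.5 and 97.4 CPM (-0.66 ± 0.21, adjusted p = 0.14). The ER chaperone gene Hsp90b1 stood at 1028 and 1057 CPM and then at 760.3 and 862 CPM (-0.39 ± 0.24, adjusted p = 0.535). The list's count fell to 6 without F79 and to 8 without F81, and was 0 with all 26 libraries and 5 with 24, while its median stayed between 1.25 and 1.63.

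Immediate early genes were called in part. Of 30 tested members 9 were higher and 0 lower (Fos, Klf4, Jun, Ctgf, Fosb, Atf3, Klf2, Egr1 and Ier3), and the median was 0.49. Over all tested genes 1.49% were higher. Fos (ENSMUSG00000021250, chromosome 12, 85473890 to 85477273, plus strand), a subunit of the transcription factor AP-1, stood at 613 and 588 CPM at 3 months and at 3059 and 2238 CPM at 12 months. Its log2 fold change was 2.12 ± 0.29 (adjusted p = 0.000928), with no overlap between the ages. Klf4, a zinc-finger factor, stood at 402 and 547 CPM and then at 2063 and 1399 CPM (1.85 ± 0.28, adjusted p = 0.00222). Jun, another AP-1 subunit, stood at 992 and 809 CPM and then at 3120.2 and 2659 CPM (1.66 ± 0.26, adjusted p = 0.00332), with an antisense gene, Junos, across from it. A1 was the higher of the 12-month libraries in all 3 genes. Egr1, a zinc-finger factor, was already at 5939.9 and 4710.3 CPM at 3 months and reached 16470.0 and 11361 CPM at 12 months (1.37 ± 0.31, adjusted p = 0.0323). Ctgf, a secreted matrix-associated factor, stood at 23.5 and 23.4 CPM and then at 76.7 and 81.6 CPM (1.73 ± 0.30, adjusted p = 0.00527). Not all such genes were called. Junb stood at 477 and 402 CPM at 3 months and at 508 and 409 CPM at 12 months, and Zfp36, an mRNA-decay factor, at 5797 and 4297 CPM and then at 4097 and 3326 CPM. Without F79, and again without F81, 2 of the 30 were called, and with 24 or 26 libraries 0 were. The freezing and dissociation steps are given alike for all samples, and their part in these genes was not tested.

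The 12 largest rises that met the naming rule were Lsmem1, Trim69, Fam222a, Lonrf3, Neto2, Fam71a, Hspa1b, Milr1, Hspa1a, Hmox1, Sap30 and Hbegf. Lsmem1, a predicted membrane protein, was the largest of them, with 1.06 and 0.434 CPM at 3 months and 14.2 and 9.18 CPM at 12 months (log2 fold change 3.91 ± 0.63, adjusted p = 0.00369). Its counts were few at 3 months, 7 over both libraries. Fam222a went from 1.27 and 1.74 CPM to 15.2 and 21.96 CPM (3.58 ± 0.44, adjusted p = 0.000558). Hmox1, the heme oxygenase that oxidative stress induces, stood at 27.1 CPM in both 3-month libraries and at 222 and 154 CPM at 12 months (2.78 ± 0.44, adjusted p = 0.00697). Hbegf, a growth factor that binds the EGF receptor, stood at 7.83 and 16.5 CPM and then at 69.0 and 61.2 CPM (2.40 ± 0.34, adjusted p = 0.00152). In all of these the 12-month libraries were apart from and above the 3-month ones. Hbegf was the only called gene among 30 tested of the IGF, FGF, EGF and HGF list (1.49% of all tested genes were called higher). Milr1 and Sap30 were each called in only 1 of the 4 fits that leave out a library. Milr1 overlaps Polg2 on the opposite strand, and Trim69 overlaps Patl2. Whether counting used strand is not given in the sources used here.

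Genes of RNA processing and of histone supply were also among the rises. Against the 1.49% of all tested genes called higher, 3 of 11 tested SR splicing factors were. Srsf2 stood at 102 and 134 CPM at 3 months and at 456 and 379 CPM at 12 months (log2 fold change 1.80 ± 0.23, adjusted p = 0.000558), and Srsf3 and Srsf7 rose by 1.66 ± 0.25 and 1.64 ± 0.21 (adjusted p = 0.00214 and 0.000716). Among hnRNP genes, which package pre-mRNA, 3 of 20 were higher, among them Hnrnph1 at 437 and 424 CPM and then 1655 and 1274 CPM (1.74 ± 0.24, adjusted p = 0.00112). Of 10 snoRNA host genes 3 were higher, including Snhg5 at 17.6 and 17.1 CPM and then 74.9 and 72.6 CPM (2.06 ± 0.27, adjusted p = 0.000716). None of these families had a member called lower, and their medians were 0.46 for SR factors, 0.00 for hnRNP genes and 0.98 for snoRNA hosts. The counts of hnRNP and of snoRNA host genes were each 1 without F79, without F81 or without A1, and 1 with 24 libraries, while 2 or 3 SR genes were called in those fits. With 26 libraries all were 0. None of 83 cytosolic ribosomal protein genes and none of 39 proteasome subunit genes was called. Small values leaned up in the ribosomal genes (73 of 83 above 0, median 0.25). They leaned down in the proteasome genes (31 of 39 below 0, median -0.22). Slbp, which binds the stem-loop of histone mRNA, stood at 34.9 and 38.6 CPM and then at 159 and 116 CPM (1.88 ± 0.24, adjusted p = 0.000558). Nasp, a histone chaperone, stood at 53.7 and 55.5 CPM and then at 234 and 155 CPM (1.81 ± 0.24, adjusted p = 0.000755). Pcna, the sliding clamp of DNA replication, was the only called gene of 24 on the proliferation list, at 41.5 and 42.3 CPM and then 203 and 129.8 CPM (1.97 ± 0.26, adjusted p = 0.000716). These families, Slbp and Nasp were picked after their values had been seen.

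Among further lists, 1.49% of all tested genes called higher and 0.387% lower are the background. Of 20 tested genes known as targets of Atf4, a family also drawn up after values were seen, 6 were higher and 1, Atf5, was lower. Sesn2, a stress-induced inhibitor of mTORC1, stood at 2.54 and 6.07 CPM at 3 months and at 24.4 and 21.4 CPM at 12 months (log2 fold change 2.39 ± 0.39, adjusted p = 0.00396). Slc7a5, a transporter of large amino acids, stood at 14.8 and 17.4 CPM and then at 50.1 and 56.4 CPM (1.70 ± 0.28, adjusted p = 0.00378). Atf5, a transcription factor, went the other way, from 130.3 and 119.5 CPM to 39.9 and 48.4 CPM (-1.53 ± 0.28, adjusted p = 0.0083). The family's 20 genes had a median of 1.09, or 0.90 with 3 genes of few counts set to their count ratios or bounds, but 0 were called without F79 and 2 without F81. On the circadian clock list 2 of 18 were higher, the clock-output factors Hlf (1.42 ± 0.29, adjusted p = 0.0179) and Tef (1.51 ± 0.36, adjusted p = 0.0408), and neither was called when F79 or F81 or A1 was left out. The hour at which the glands were taken is not given. Of 20 glucocorticoid and FoxO targets 3 were higher, namely Fam46c (1.78 ± 0.31, adjusted p = 0.00589), the kinase gene Sgk1 (1.51 ± 0.29, adjusted p = 0.0114) and Zbtb16 (1.17 ± 0.26, adjusted p = 0.0275). The count was 0 without F79 or F81, 1 without A1, and 0 with 24 or 26 libraries. Of 21 chemokine and cytokine genes Tnf was higher, at 1.48 and 1.30 CPM and then 4.62 and 7.56 CPM (2.08 ± 0.51, adjusted p = 0.0489), and Ccl9 was lower, with 40 counts at 3 months and 1 at 12 months. Acly, which makes acetyl-CoA for lipid synthesis, was higher among 31 genes of adipogenesis and lipid metabolism (1.23 ± 0.24, adjusted p = 0.0109). Of 30 TGF-beta and BMP genes, Smad7, an inhibitor of the pathway, and Id2, a BMP target, were higher (1.35 ± 0.30 and 1.44 ± 0.31, adjusted p = 0.0284 and 0.0253), and Inhbb, a subunit of inhibin and activin, was lower (-1.64 ± 0.37, adjusted p = 0.0323). Of the genes named from these last lists, Tnf and Smad7 were called in none of the 4 fits that leave out a library, and Ccl9, Acly, Id2 and Inhbb in 1 each. No gene was called among 27 on the Wnt list, 25 on the interferon list, 22 on the list of senescence-associated secretion, 12 complement genes and 29 mesenchymal transcription factors. Cdkn1a, a cell cycle inhibitor often used as a sign of senescence, stood at 471 and 531 CPM and then at 558 and 459 CPM. Cdkn2a had too few counts to be tested. Snai2 stood at 25.6 and 13.9 CPM at 3 months and at 17.4 and 22.9 CPM at 12 months, and the ages overlapped.

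**Figure D3:**
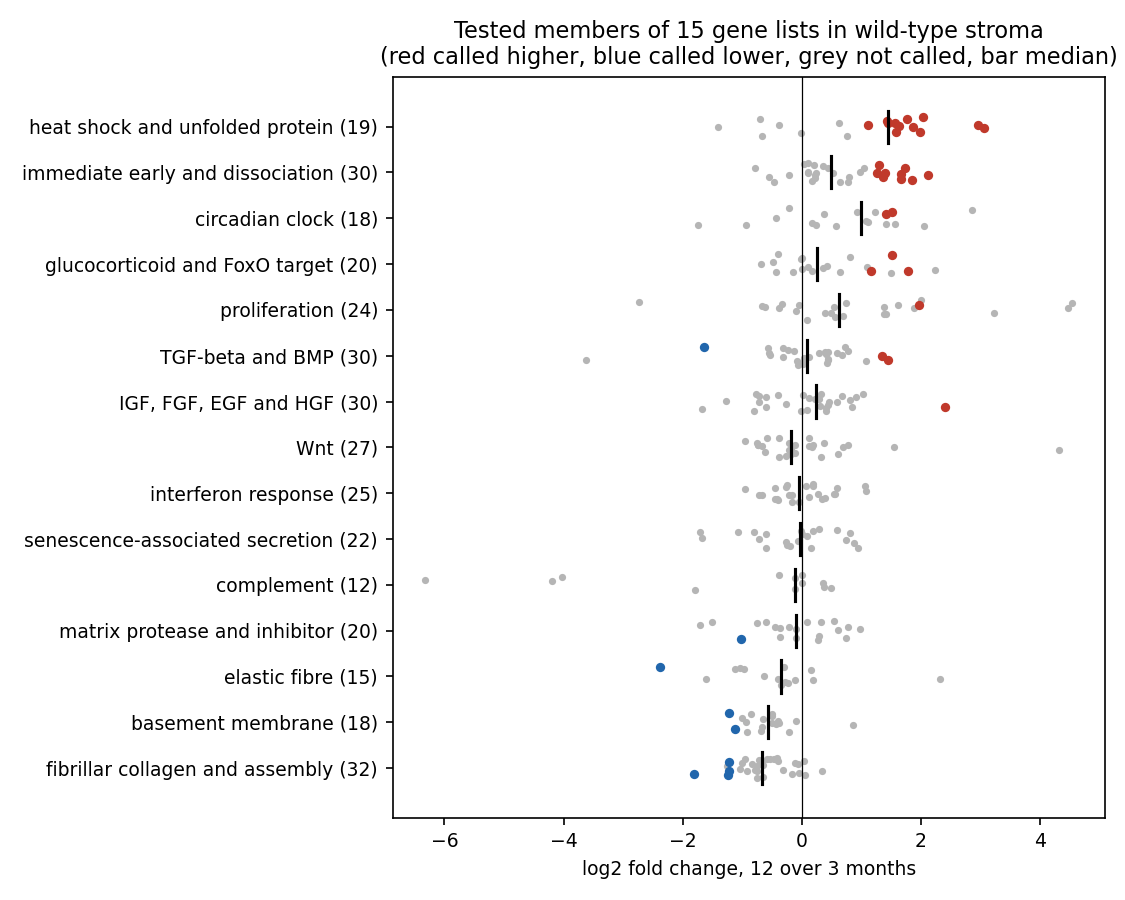
Log2 fold change, 12 over 3 months, of every tested member of 15 gene lists (number tested in brackets), with the median as a bar and called genes in red (higher) or blue (lower). The heat shock list (12 of 19 called higher) lies to the right and the fibrillar collagen list (4 of 32 called lower) to the left, and the Wnt, interferon and complement lists hold no coloured point.

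Part of the extracellular matrix genes were lower at 12 months. Of 32 tested genes of fibrillar collagen and its assembly 4 were called lower (0.387% of all tested genes were) and 0 higher, the median was -0.66, and 29 had a negative fold change. In 22 of the 32 both 12-month libraries lay below both 3-month libraries, against 22.3% of all tested genes. Col5a3, a chain of the type V collagen that starts fibrils (ENSMUSG00000004098, chromosome 9, 20770050 to 20815067, minus strand), stood at 330.4 and 182 CPM at 3 months and at 80.5 and 67.5 CPM at 12 months. Its log2 fold change was -1.81 ± 0.28 (adjusted p = 0.00246). Col6a3, of the beaded type VI filaments, stood at 1415 and 1127 CPM and then at 591 and 512 CPM (-1.23 ± 0.28, adjusted p = 0.0311). The ages were apart in both genes. Pcolce, which speeds the removal of procollagen ends, stood at 406 and 259 CPM and then at 124 and 162 CPM (-1.24 ± 0.24, adjusted p = 0.0118). Serpinh1, the collagen chaperone of the ER, stood at 217 and 179.6 CPM and then at 71.7 and 102 CPM (-1.22 ± 0.27, adjusted p = 0.025). It is a heat-inducible gene in many cells, and here it lay on the other side from the cytosolic chaperones.

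Other major matrix genes had values in the same direction without passing the test. Col3a1 stood at 6312 and 4722 CPM at 3 months and at 2203 and 2475 CPM at 12 months (log2 fold change -1.26 ± 0.34, adjusted p = 0.0811). The fold change of Col1a1, whose levels are given above, was -1.04 ± 0.32 (adjusted p = 0.13), and that of Sparc, a collagen-binding matricellular protein, was -0.92 ± 0.33 (adjusted p = 0.226). Both 12-month libraries lay below both 3-month libraries in all 3 genes. Decorin and lumican, small proteoglycans that space the fibrils, did not share the size of that difference. Dcn stood at 8823 and 6782 CPM and then at 8599 and 6524 CPM, and Lum at 2103 and 1552 CPM and then at 1379 and 1378 CPM. For the next 3 lists, 0.387% of all tested genes called lower is the background. Of 18 basement membrane genes 2 were lower, perlecan Hspg2 (-1.13 ± 0.24, adjusted p = 0.0243) and Col15a1 (-1.22 ± 0.27, adjusted p = 0.03). Col15a1 is also the only called gene of the fibroblast list. Of 15 elastic fibre genes 1 was lower, the fibrillin gene Fbn2, at 25.6 and 30.4 CPM and then 2.83 and 8.28 CPM (-2.38 ± 0.46, adjusted p = 0.0124). Among 20 proteases and inhibitors of the matrix, Mmp19 was lower (-1.03 ± 0.25, adjusted p = 0.0478). Col15a1 and Mmp19 were called in none of the fits that leave out a library, and Hspg2 and Fbn2 in 1 each. The fibroblast list's sum, given above, lay lower in both 12-month libraries. That list shares Col1a1, Col1a2, Col3a1, Dcn and Lum with the fibrillar list and Col15a1 with the basement membrane list. Its sum is therefore not a separate observation. None of the 32 fibrillar genes was called without F79, 2 without F81, 1 without A1 and 0 with 24 or 26 libraries.

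**Figure D4:**
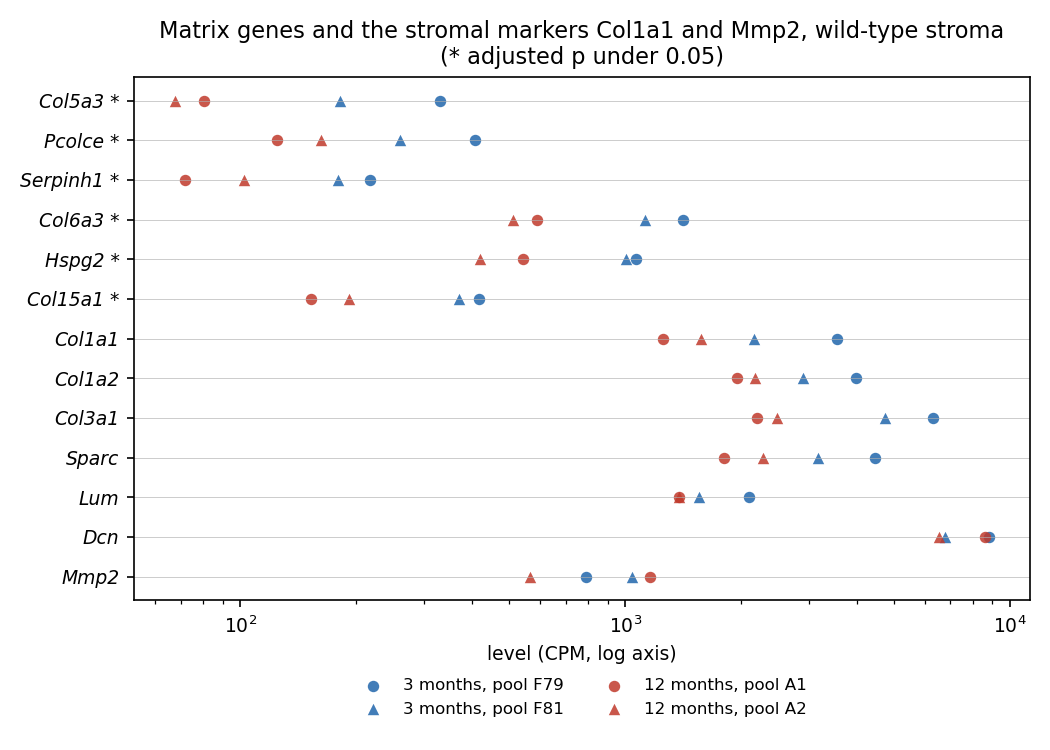
Level of 12 matrix genes and Mmp2 in CPM (log axis) in each wild-type stromal library, with genes called at an adjusted p under 0.05 starred. From Col5a3 to Lum the 12-month points (red) lie left of the 3-month points (blue), and for Dcn and Mmp2 the ages overlap.

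A few macrophage and antigen presentation genes were lower, at low levels throughout. Of 13 macrophage and monocyte genes 9 passed the filter on low counts, and of these 3 were lower (Mrc1, Csf1r and Cd14) and 0 higher. Over all tested genes 0.387% were called lower. Mrc1, the mannose receptor of tissue macrophages (ENSMUSG00000026712, chromosome 2, 14229392 to 14332057, plus strand), stood at 5.29 and 16.5 CPM at 3 months and at 0.447 and 0.180 CPM at 12 months. These rest on 101 and 4 counts, and the log2 fold change was -5.01 ± 0.75 (adjusted p = 0.00208). Csf1r, the receptor for the macrophage growth factor, had 34 counts at 3 months and 1 at 12 months, a ratio of 44.7 (95% exact interval 7.49 to 1815, counting error only). Cd14, a co-receptor for lipopolysaccharide, stood at 15.9 and 30.1 CPM and then at 5.81 and 9.002 CPM (-1.67 ± 0.37, adjusted p = 0.03). Cd68, a lysosomal protein of macrophages, lay the other way, at 4.44 and 2.82 CPM and then at 6.41 and 9.002 CPM, and was not called (1.05 ± 0.47, adjusted p = 0.355). It was the only 1 of the 9 with a positive fold change. Lyz2, the macrophage lysozyme, stood at 8.25 and 23.4 CPM and then at 0.894 and 6.66 CPM and was not called (adjusted p = 0.314). F81 was the higher library at 3 months for Mrc1, Csf1r, Cd14 and Lyz2, and the lower one for Cd68. The list held 2 calls without F79 or A2, 1 without F81 or A1, 1 with 24 libraries and 0 with 26. Mrc1 was called in all 4 fits that leave out a library and Csf1r in 0. Summed over the whole list, the levels were 43.6 and 95.2 CPM at 3 months and 15.2 and 27.4 CPM at 12 months, and 5 of the 13 genes in A1 and 4 in A2 had no count, against 1 in each 3-month library. H2-Eb1, a class II antigen presentation gene, had 54 and 2 counts, a ratio of 35.5 (9.36 to 300.3), and was also called in 0 of those 4 fits. The dendritic list as a whole summed to 29.0 and 61.8 CPM and then to 6.85 and 15.8 CPM. F13a1 and Retnla, which tissue macrophages are known to express, were named after their values were seen. Neither had a count at 12 months, which with 3 counts as the floor over the group makes them at least 29.3-fold and at least 13.1-fold lower. Both were picked for their falls, so they are not separate support. Genes with almost no counts at 12 months, such as these, Csf1r and H2-Eb1, could only show a fall once they passed the filter on low counts. 

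The other large falls by the rule were Apold1, Scarna2, H19, Scn8a, Yam1, Ptx3, Fgl2, Gcc1 and Steap4. Apold1, known as an early response gene of endothelial cells, stood at 29.0 and 34.1 CPM at 3 months and at 4.92 and 4.86 CPM at 12 months (log2 fold change -2.71 ± 0.39, adjusted p = 0.00157). Fgl2, a fibrinogen-like protein, stood at 1968 and 1415 CPM and then at 582 and 426 CPM (-1.77 ± 0.33, adjusted p = 0.00994). Ptx3, a secreted pentraxin of innate immunity, stood at 1111 and 775 CPM and then at 317 and 236 CPM (-1.79 ± 0.32, adjusted p = 0.00821). All of these kept the ages apart. Steap4, a metalloreductase that inflammation induces, fell by 1.68 ± 0.31 on the log2 scale (adjusted p = 0.0078), and the imprinted non-coding RNA H19 fell by 2.33 ± 0.52 (adjusted p = 0.0319). H19 was called in none of the fits that leave out a library, nor was Scn8a. Gcc1, Fgl2, Ptx3 and Yam1 each overlap another gene on the opposite strand, so reads may be shared (whether counting used strand is not given). Of 12 endothelial markers only Cldn5 was called (0.387% of all tested genes were called lower). It had 3 counts at 12 months and a ratio of 13.6 (4.23 to 69.4), and was called in none of the fits that leave out a library. The 12 had a median of -1.03, and 11 were below 0. In 9 both 12-month libraries lay below both 3-month libraries, against 22.3% of all tested genes. Their sums were 230 and 285 CPM at 3 months and 173 and 206 CPM at 12 months. Tek, the only marker above 0, averaged 74.7 and then 84.6 CPM of these sums. Stard4, a sterol carrier, fell to below its 3-month levels in both 12-month libraries (-1.35 ± 0.28, adjusted p = 0.0204). Cyp51, an enzyme of sterol synthesis, was at -1.36 ± 0.32 (adjusted p = 0.0412). Both were picked after their values had been seen, and neither was called when any 1 library was left out.

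The same change with age was then read in the luminal and basal cells, which came from the same 4 pools and so do not repeat the comparison in other mice. Of all tested genes, 42.5% were above 0 in luminal and 49.4% in basal cells. Of the 224 genes higher in stroma, 216 were also above 0 in luminal and 213 in basal cells. Of them 153 were called higher in luminal cells and 139 in basal cells, against 1.99% and 3.9% of all tested genes. Their median rise was 1.63 in stroma, 1.35 in luminal and 1.22 in basal cells. Hspa1a rose by 2.15 in luminal and by 2.37 in basal cells (adjusted p = 0.000545 and 0.000426), and Fam71a, Dnajb9 and Hbegf likewise rose in all 3 fractions. Fos rose by 1.93 in luminal cells (adjusted p = 0.00129) and was at 0.95 in basal cells (adjusted p = 0.0625). Of 58 genes lower in stroma, 53 were below 0 in luminal and 47 in basal cells, 14 and 15 were called lower there (1.52% and 1.07% of all tested genes were), and 1 was called higher in basal cells. Their median was -1.68 in stroma, -0.89 in luminal and -0.66 in basal cells. Fibrillar collagen genes had a median of -1.45 with 14 of 32 called lower and 1 higher in the luminal libraries, and a median of -0.51 with 1 lower in the basal ones. The fibroblast list, which shares Col1a1, Col1a2, Col3a1, Dcn and Lum with the fibrillar list, moved with them in the luminal libraries. It had a median of -1.80 with 8 of 16 called lower there, and a median of 0.48 with none called in the basal libraries. Its part in the collagen values was not tested. Of the heat shock list 12 of 19 were called higher in luminal and 10 in basal cells.

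**Figure D5:**
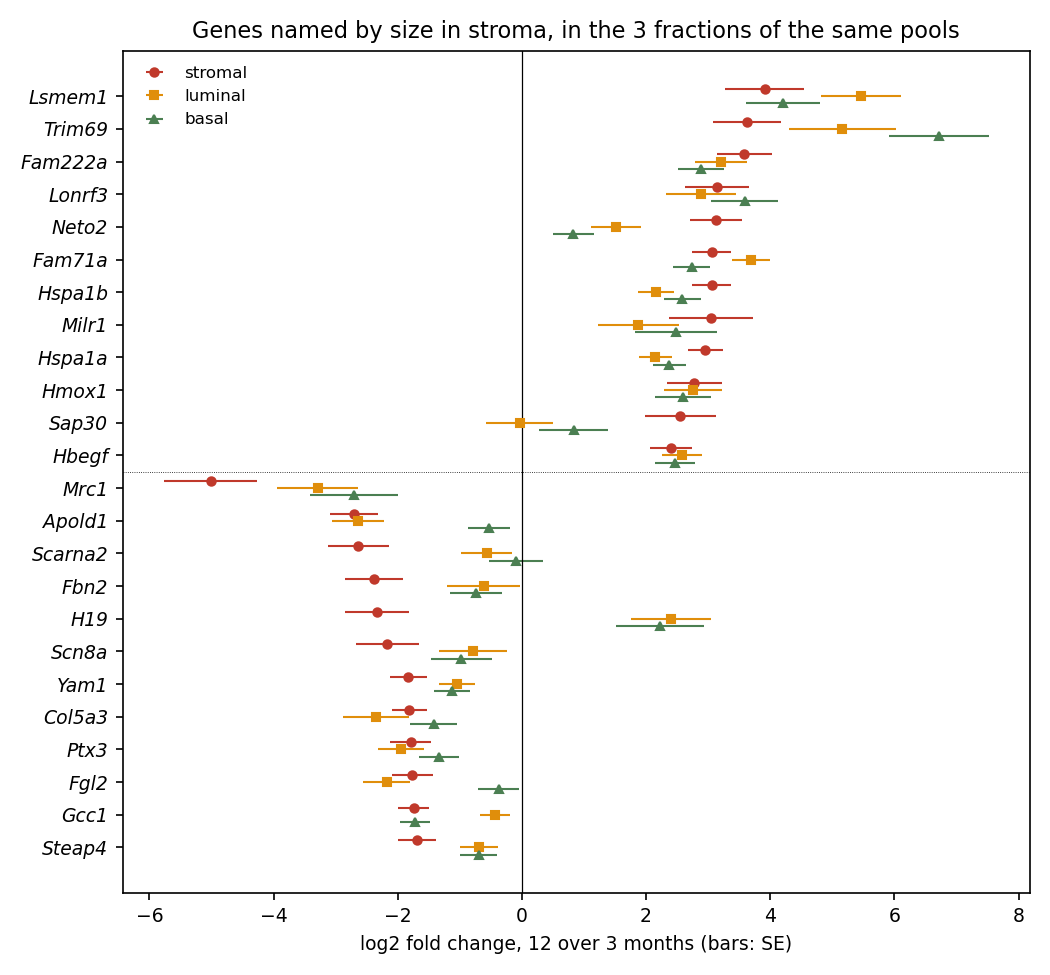
Log2 fold change with SE, 12 over 3 months, of the 12 largest rises (above the dotted line) and 12 largest falls in stroma (red circles), with the luminal (orange squares) and basal (green triangles) libraries of the same pools. Most rises such as Fam71a and Hbegf have like values in the 3 fractions, while H19 lies below 0 in stroma and above 0 in the other fractions.

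Whether the age change of stroma differed from that of the other fractions was tested as a difference of differences. Against luminal cells no gene passed in edgeR (995 at an unadjusted p under 0.05, 70 called by DESeq2), and without A1 45 did. The smallest p-values were those of Lsp1, H19, Ntn4, Myh11 and Zfp365, each with an adjusted p of 0.136. Lsp1, a leukocyte-specific actin-binding protein, was nearly level in stroma (0.09 ± 0.25) and lower in luminal cells (-4.61). Myh11, the smooth muscle myosin, stood at 1.11 ± 0.43 and -2.62 and was not called in stroma. The pericyte and smooth muscle list, which holds Myh11, summed to 1090 and 726 CPM at 3 months. At 12 months it summed to 857 CPM in A1 and 1754 CPM in A2, the library with the most basal marker RNA. Its median was 0.30, and -0.24 without A2. Against basal cells 42 genes (0.28%) differed, 4 with a larger value in stroma (0.0267%) and 38 with a smaller one (0.254%). This balance was not stable. Without A1 most called genes had a larger value in stroma, though all 42 kept their sign. With each pool as a block, since the fractions of a pool come from the same mice, 82 differed, including 41 of the 42. The smallest p-values were those of Basp1, Gabrp, Fcgbp, Spns2 and Pde2a, and in all 5 the basal cells rose while stroma was not called. Gabrp, a GABA receptor subunit of epithelial cells, stood at -1.73 ± 0.45 in stroma and 2.35 in basal cells, a difference of -4.08 ± 0.61 (adjusted p = 0.0433). Endothelial markers were among the 42, with Pecam1 at 0.00 in stroma and 1.97 in basal cells, Emcn at -1.25 and 2.24 and Vwf at -1.54 and 1.35. Of the genes called in stroma itself, 1 rise (Nme5) and 4 falls (Mmrn2, Inhbb, Cd14 and H19) were among the 42, named here after their values were seen. H19 differed by -4.55 ± 0.88 (adjusted p = 0.0461). Without F79 the count was 3, without F81 it was 0, without A1 it was 112, and with 24 or 26 libraries it was 0.

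Stromal libraries of Snai2-null mice of both ages come from other pools, F82 and F84 at 3 months and A5 and A6 at 12 months. The library labelled A5 stromal held 23.9 CPM of Col1a1 and 1025 CPM of the basal keratin gene Krt14, so it goes against its label, and values are given with and without it. As labelled, 169 of the 224 rises and 41 of the 58 falls had the same sign in null stroma. Without A5 these were 212 and 44, where 50.7% of all tested genes lay above 0 and 48.7% below 0. The medians of the rises and falls were then 0.98 and -0.89, where all tested genes had 0.01. A6 then lies alone at 12 months, so no test was made. In A6, 190 of the 224 rises lay above both 3-month null libraries (36.1% of tested genes did), and 39 of the 58 falls lay below both (35.2%). Hspa1a stood at 64.4 and 159 CPM in F82 and F84, 525 CPM in A6 and 22.8 CPM in A5. Fos stood at 592 and 422 CPM, then 1113 CPM in A6 and 249.8 CPM in A5. Col5a3 stood at 325 and 186 CPM, then 62.8 CPM in A6 and 0.803 CPM in A5. A6 was on the wild-type side in these 3 genes, but not in macrophage genes: its macrophage list summed to 81.7 CPM against 69.1 and 16.8 CPM at 3 months. A6 also held 3921 CPM of milk protein genes, more than the 1759 CPM of A1, and 205.1 CPM of basal markers. Its fibroblast list summed to 14490 CPM, against 42100 and 44890 CPM in F82 and F84. Its luminal epithelial list summed to 1985 CPM, against 657.5 and 352 CPM. The part of these unequal cell contents in the lower Col5a3 of A6 was not tested.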

How the data were processed

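Per the labels' protocols, 5 ng of RNA per sorted sample was amplified (NuGEN Ovation V2), and TruSeq Nano libraries were built from 100 ng of the cDNA. Per the submitters' processing notes, TopHat2 2.0.13, HTSeq and the GRCm38 build were used. No source used here gives HTSeq's version or settings. The authors deposited whole-number counts for 45706 genes in 26 libraries, which were used as deposited. Gene positions and types come from GENCODE vM21.

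The members and gene lists were chosen with earlier results of these data known. Genes were filtered by filterByExpr (minimum count 10, minimum total 15) and scaled by TMM, and edgeR 4.0.16 (R 4.3.3, limma 3.58.1) fitted a robust quasi-likelihood model with 1 coefficient for each of the 6 wild-type groups. The 12 libraries share the spread. Fractions of 1 pool were treated as if independent. Calls are at a Benjamini-Hochberg adjusted p under 0.05. p-values measure the spread between pools of 3 mice. CPM values are scaled by TMM over all 26 libraries. SE is the log2 fold change divided by the root of the F statistic. With 1 to 3 counts in a group, ratios carry exact 95% intervals, and 0 counts were set to 3 for bounds. Intervals and bounds cover counting error only.

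Named genes were the 12 largest called changes each way whose higher age averaged 10 CPM or more without overlap, as many as 4 genes per list (those called, then the most abundant), Col1a1, Mmp2, Snai2 and Cdkn2a, and the 5 smallest p-values of each difference. Numbered gene models were counted and not named, 1 gene is not reported here, and genes outside the rule were named after their values were seen. Alternatives were other sets of libraries, RLE scaling, no filter, DESeq2 1.42.0, removal of mitochondrial genes, each library left out and a replicate block. Pool names in the labels pair the fractions across groups, and libraries of 1 pool deviated from their groups' means with correlations of 0.00223 to 0.14 over the 4 pairs checked. The test was checked on simulated data for this comparison: of 200 genes changed by 1.5 on the log2 scale among 14611, 108 were called, and 10 unchanged genes were. Figures used Python 3.11.15 and matplotlib 3.10.9.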

Additional observations from a re-analysis of the deposited data

Results flagged for a closer look

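The difference between the age changes of stroma and basal cells is listed because a test of the difference itself passed. It did so for 42 genes, with the 5 smallest p-values in Basp1 (-2.79), Gabrp (-4.08), Fcgbp (-3.15), Spns2 (-2.72) and Pde2a (-2.98), as log2 differences of stroma minus basal cells. No group here has 4 samples, so no check for an outlying sample could be made.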

How the results depend on the processing

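Each group holds 2 pools, so 1 library can decide a call. The 282 called genes became 0 with all 26 libraries, 37 with 24, 649 with no low-count filter (more genes tested), 434 with DESeq2, and 67 to 295 with 1 library left out. Counts with only the 4 stromal libraries (290, sharing 232), RLE (267) and no mitochondrial genes (277) were within 1.5 times. The common coefficient of variation was 0.276 in the 12 wild-type libraries, 0.485 in 26 and 0.403 in 24. Of the 282, 41 were called in all 4 fits that leave out a library, and of 95 called genes checked one by one, 28 were. The sign of all 282 was kept in every fit that tested them. The difference from luminal cells, 0 genes, became 234 with no filter, 70 with DESeq2 and 0 to 45 with a library left out. The difference from basal cells, 42 genes, became 0 with 26 libraries, 0 with 24, 421 with no filter, 221 with DESeq2, and 0 to 112 with a library left out. With the replicate block it was 82, and 0 for luminal cells. The age change itself is carried between pools, so no paired analysis of it was possible. Low counts limit the immune genes most.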
